A study of Homo sapiens with 4 samples.

Results

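Glycolysis converts glucose to pyruvate and lactate, and the genes of its transporters, enzymes and regulators were followed here together with genes of the response to low oxygen. The set was a fixed list of 36 gene symbols. Each was read at the probe set that the platform annotation pairs with that gene alone, and at the brightest one where there were several (TPI1 alone among them had 2). This gave 33 measured genes of 18417 in the table. CA9 and SLC16A3 were not analysed here. PGAM1 was left out because its 5 probe sets are also assigned to PGAM4.

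Glucose enters cells through facilitative transporters, is trapped by hexokinase phosphorylation, and passes through phosphofructokinase, the main point of control, to pyruvate kinase and lactate dehydrogenase. Several steps have more than 1 gene, with an isoform found in most tissues beside isoforms typical of brain, muscle or blood cells. The hypoxia-inducible factors HIF-1 alpha (HIF1A) and HIF-2 alpha (EPAS1) are degraded in oxygen after hydroxylation by EGLN enzymes, and at low oxygen they bind DNA at a short core sequence and raise many glycolytic genes as well as VEGFA, ADM and other targets. Leukaemic blasts are known for high glucose use.

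The lines compared were MV4-11, a human acute myeloid leukaemia line labelled as drug-sensitive with high EZH2, and MV4-11R, labelled as drug-resistant with low EZH2. MV4-11R was obtained from MV4-11 by growing it for 3 months in the presence of rising amounts of the tyrosine kinase inhibitor PKC412 (midostaurin). MV4-11 is known to carry an MLL fusion and an internal tandem duplication in FLT3, a kinase that PKC412 inhibits. There were 2 Affymetrix arrays per line, called here parental arrays 1 and 2 (MV4-11) and resistant arrays 1 and 2 (MV4-11R) after their replicate numbers. The labels do not say whether MV4-11R is a clone, whether PKC412 was present at harvest, what the oxygen level or cell density was, or whether the arrays of a line came from separate cultures, so p-values reflect only how far these arrays scatter, possibly for technical reasons. The mRNA of EZH2 read 9.75 and 9.74 log2 units in MV4-11 and 9.90 and 9.29 in MV4-11R (difference -0.14, adjusted p = 0.734), so 1 MV4-11R array lay above the MV4-11 arrays and the other below, and the sign turns when resistant array 2 is left out.

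Values are log2 signal, so a difference of 1 is a doubling. Array medians over all probe sets lay between 6.75 and 6.78. The 95th percentile of 341 olfactory receptor genes, whose expression belongs to the nose, was 6.26 and serves here as a guide to background. Of 10 myeloid markers 9 were above that guide in MV4-11 and 10 in MV4-11R, and their mean ranged from 9.94 to 10.12 on the MV4-11 arrays and from 9.56 to 9.75 on the MV4-11R arrays. Of these CSF1R (-1.73), PTPRC (-0.81) and LYZ (-0.69) fell and 0 rose at an adjusted p under 0.05 in limma, the threshold used throughout. Of 5 B cell markers 4 and 3 were above the guide, with PAX5 rising (0.80) and CD79B falling (-1.09), and MS4A1 under it in both lines. Of 7 T and NK cell markers 2 were above it in each line, among them NKG7, which rose (0.94), and the 3 CD3 genes were under it. Of 7 erythroid and megakaryocytic markers 3 were above it in each line and ITGA2B fell (-0.67), and of 8 epithelial and fibroblast markers 4 were above it in each line and LUM, under it in both, rose (0.55). In the order B, T and NK, erythroid, epithelial, the array means of these 4 lists were 6.61, 5.96 to 6.02, 6.48 to 6.49 and 5.86 to 5.88 in MV4-11, and 6.49 to 6.67, 6.12 to 6.20, 6.44 to 6.53 and 5.86 to 5.97 in MV4-11R. No marker gene is a member here, and the part of the markers' shifts in the differences of the members was not tested.

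The sequence that hypoxia-inducible factors recognise has the core ACGTG or GCGTG. Both were searched for on both strands in the 250 bases before the most upstream start that RefSeq (GRCh38.p14) lists for each gene, and CACGTG counts as 2 matches because it reads as ACGTG on either strand. Promoters are given for 4 genes that were lower in MV4-11R, HK2, ALDOC, ENO2 and KDM3A, and for LDHA and PGK1, glycolytic enzymes that did not pass the test, so that the letters of both kinds can be compared. Capitals mark the matches, and each sequence runs 5′ to 3′ on the gene's strand and ends just before the start. The regions are chr2:74833877-74834126 (plus strand), chr17:28576896-28577145 (minus strand), chr12:6914330-6914579 (plus strand), chr2:86441121-86441370 (plus strand), chr11:18394313-18394562 (plus strand) and chrX:78103998-78104247 (plus strand), in this order.
HK2: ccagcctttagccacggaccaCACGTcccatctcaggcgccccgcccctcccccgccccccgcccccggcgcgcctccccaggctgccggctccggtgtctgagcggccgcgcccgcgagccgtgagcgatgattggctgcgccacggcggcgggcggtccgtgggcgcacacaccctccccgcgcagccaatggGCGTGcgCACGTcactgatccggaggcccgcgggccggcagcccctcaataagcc
ALDOC: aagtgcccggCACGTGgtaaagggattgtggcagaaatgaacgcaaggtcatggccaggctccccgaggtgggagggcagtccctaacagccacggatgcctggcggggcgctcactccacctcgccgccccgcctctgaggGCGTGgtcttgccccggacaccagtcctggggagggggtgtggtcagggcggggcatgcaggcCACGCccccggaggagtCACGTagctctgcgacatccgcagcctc
ENO2: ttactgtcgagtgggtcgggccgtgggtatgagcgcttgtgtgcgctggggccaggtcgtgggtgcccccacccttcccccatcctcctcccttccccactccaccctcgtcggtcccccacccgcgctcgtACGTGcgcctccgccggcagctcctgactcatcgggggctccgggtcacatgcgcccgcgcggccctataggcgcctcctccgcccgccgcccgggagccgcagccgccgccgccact
KDM3A: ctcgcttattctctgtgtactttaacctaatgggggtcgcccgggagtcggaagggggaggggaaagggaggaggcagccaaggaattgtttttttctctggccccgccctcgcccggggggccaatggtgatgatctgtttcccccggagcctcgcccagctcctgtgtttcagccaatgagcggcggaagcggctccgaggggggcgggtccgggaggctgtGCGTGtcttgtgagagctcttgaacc
LDHA: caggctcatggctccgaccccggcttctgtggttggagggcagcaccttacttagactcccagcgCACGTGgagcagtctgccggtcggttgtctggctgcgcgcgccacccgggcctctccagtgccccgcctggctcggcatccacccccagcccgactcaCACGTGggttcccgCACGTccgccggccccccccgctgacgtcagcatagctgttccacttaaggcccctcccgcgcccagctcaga
PGK1: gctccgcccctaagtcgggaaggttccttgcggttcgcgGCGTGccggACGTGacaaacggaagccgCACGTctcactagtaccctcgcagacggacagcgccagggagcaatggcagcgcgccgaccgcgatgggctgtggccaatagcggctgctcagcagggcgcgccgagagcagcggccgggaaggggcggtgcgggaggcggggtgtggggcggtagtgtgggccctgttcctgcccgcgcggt

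ALDOC and LDHA each held 5 matches, HK2 and PGK1 each 3, and ENO2 and KDM3A each 1. Of the 30 members with a listed promoter, 19 (63.3%) had at least 1 match (SLC2A3, VEGFA and NDRG1 were not matched), against 51.1% of the 14237 tested genes that could be matched. Of the 8 members that were lower 6 had a match, and of the 22 others 13 had one. At least 3 matches were held by 2 of the 8 (25%) and 3 of the 22 (13.6%), against 10.1% of the tested genes that could be matched. LDHA and PGK1 are among those 3, so they are not typical of the members that did not pass. HK2 and ALDOC are the 2 of the 8, so they are not typical of the members that were lower. HK1 and MXI1, both lower, had 0 matches at the start searched, but RefSeq lists 7 starts for HK1 and 3 for MXI1, and which of them these cells use was not analysed here. A match is only a run of letters, and binding was not measured.

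No member rose in MV4-11R and 8 of 33 fell (24.2%), at a Benjamini-Hochberg adjusted p under 0.05 in limma over all genes. At this threshold 15.1% of all genes passed, 7.92% rising and 7.13% falling. At an unadjusted p under 0.05 in the same test 3 members were higher and 11 lower, beside 15.6% and 13% of all genes. All genes include many dim ones. With dim genes left out, 13812 genes and all 33 members remained. Of those genes 21.5% passed at the adjusted threshold (1586 rises and 1378 falls), and again 0 members rose and 8 fell. The share of members called (24.2%) thus lay near that of the brighter genes, although the members' calls were all falls. The 8 were the hexokinases HK1 and HK2, the aldolase ALDOC, the enolase ENO2, the regulatory enzyme PFKFB3, the histone demethylase KDM3A, the MYC antagonist MXI1 and the transcription factor EPAS1. Both MV4-11R arrays lay below both MV4-11 arrays for 15 members (45.5%, against 26% of all genes) and above them for 9 (27.3%, against 29.6%). The median difference over the members was -0.08, and over all genes 0.0073. The number of falls was 5 without parental array 1, 3 without parental array 2, 4 without resistant array 1 and 6 without resistant array 2, and HK1 and PFKFB3 passed each time. In each of these fits fewer genes of the whole table passed as well, so the drop was not confined to the members. RNA of a whole culture does not tell a change in every cell from a change in the share of cells of a kind. VEGFA passed as a rise without resistant array 2.

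**Figure D1:**
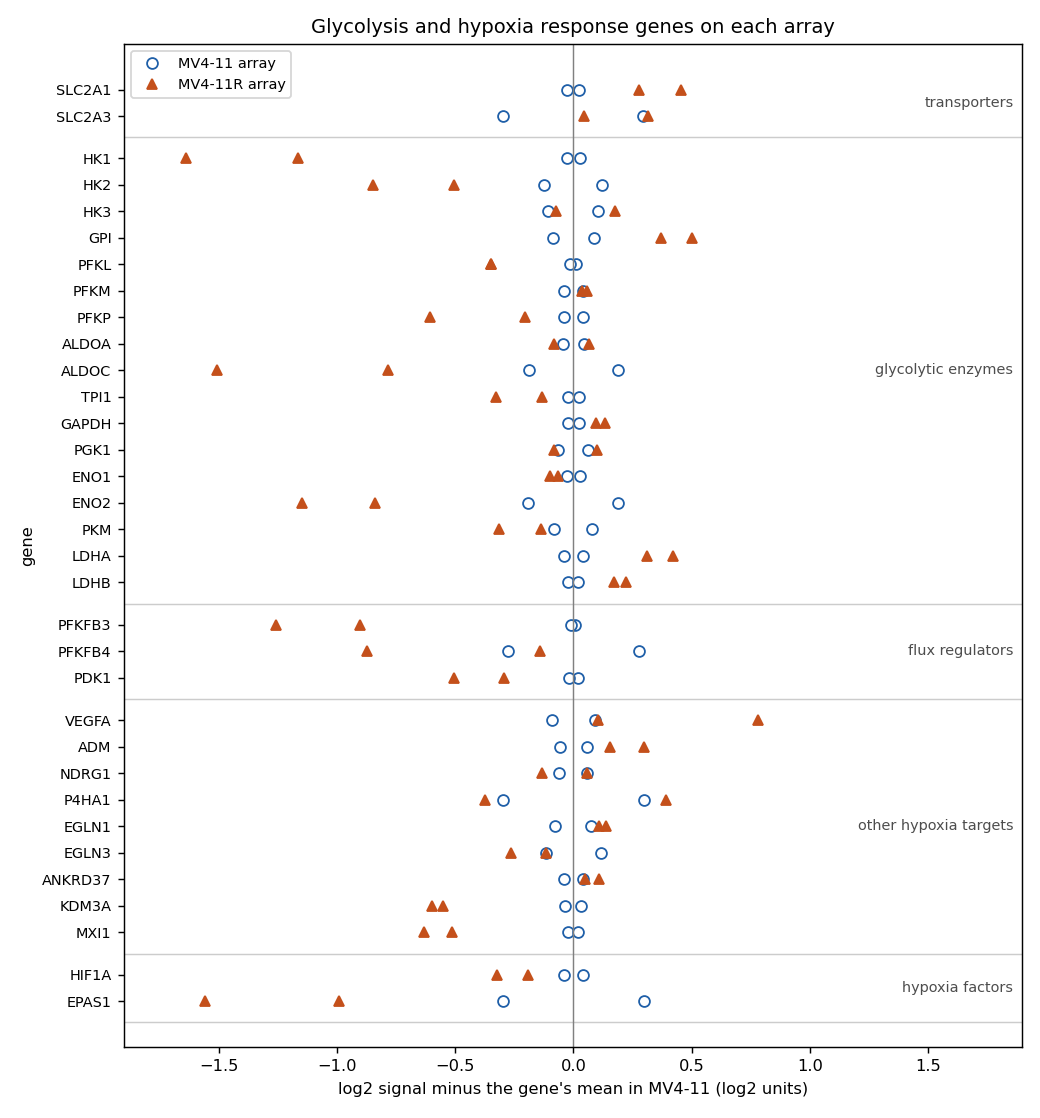
Log2 signal of each of the 33 genes on each array, as the distance from that gene's mean in MV4-11 (horizontal axis, log2 units), with MV4-11 arrays as open circles and MV4-11R arrays as triangles, grouped by role. The triangles of HK1, ALDOC, ENO2, PFKFB3 and EPAS1 lie farthest to the left, and those of GPI, SLC2A1 and LDHA lie to the right of their circles.

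The glucose transporters did not pass. SLC2A1 (GLUT1), the transporter of most dividing cells, read 10.62 and 10.57 in MV4-11 and 10.88 and 11.05 in MV4-11R, a difference of 0.37 (SE 0.12, adjusted p = 0.0924). Its arrays did not overlap between the lines. SLC2A3 (GLUT3), a transporter of high affinity, differed by 0.18 (adjusted p = 0.674) with overlapping arrays.

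Hexokinases carry out the step that commits glucose to the cell, and the genes HK1 and HK2 fell. HK1 read 8.76 and 8.71 in MV4-11 and 7.10 and 7.57 in MV4-11R, a fall of 2.64-fold (log2 difference -1.40, SE 0.17, adjusted p = 0.00592). The lines did not overlap, and the gap between them exceeded the distance between the MV4-11R arrays. HK2, the inducible form that is often high in tumours, read 9.96 and 10.21 in MV4-11 and 9.58 and 9.24 in MV4-11R. Its fall was 1.60-fold (-0.68, SE 0.16, adjusted p = 0.0411), and the call was lost without parental array 1 (adjusted p = 0.0558), parental array 2 (0.143) or resistant array 2 (0.112). HK3, the hexokinase typical of myeloid cells, differed by 0.05 (adjusted p = 0.876, 95% interval -0.29 to 0.39). Its means of 6.81 in MV4-11 and 6.86 in MV4-11R lay not far above the background guide of 6.26, so a difference may be understated.

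The isomerase and the phosphofructokinases, the steps after hexokinase, did not pass. GPI, the isomerase after hexokinase, had the largest difference among the enzymes that did not pass, reading 12.28 and 12.45 in MV4-11 and 12.73 and 12.87 in MV4-11R (0.44, SE 0.12, adjusted p = 0.0638). It passed with the replicate number as a block (adjusted p = 0.0388) and with an intensity-dependent prior (0.0260). The genes around GPI on chromosome 19, taken as up to 30 brighter neighbours on each side, had a median difference of 0.39, and without that regional shift GPI differed by 0.04. The phosphofructokinases PFKL (-0.35, adjusted p = 0.0796), PFKP (-0.41, adjusted p = 0.154) and PFKM (0.05, adjusted p = 0.844) did not pass. The means of PFKM, 6.28 in MV4-11 and 6.33 in MV4-11R, lay close to the background guide of 6.26, so a change in it could be missed.

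ALDOC, the aldolase best known from brain, read 11.81 and 12.19 in MV4-11 and 10.49 and 11.21 in MV4-11R. Its fall was 2.21-fold (-1.15, SE 0.26, adjusted p = 0.0347), the arrays of the lines did not overlap, and those of MV4-11R lay 0.72 apart. The call was lost without parental array 2 (adjusted p = 0.0976) or resistant array 1 (0.0628). ALDOA, the form of most tissues, differed by -0.0075 (95% interval -0.29 to 0.27).

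ENO2, the enolase best known from neurons, read 8.39 and 8.77 in MV4-11 and 7.43 and 7.74 in MV4-11R, a fall of 1.99-fold (-0.99, SE 0.18, adjusted p = 0.0172). Without resistant array 1 the adjusted p was 0.0537. ENO1, the widespread form, differed by -0.08 (95% interval -0.34 to 0.18).

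The remaining enzymes of the lower pathway did not pass, with differences from -0.23 for the triose isomerase TPI1 to 0.37 for LDHA. The others were the pyruvate kinase PKM (-0.22), the phosphoglycerate kinase PGK1 (0.0098), the dehydrogenase GAPDH (0.12) and LDHB (0.20). LDHA, the lactate dehydrogenase that hypoxia-inducible factors are known to raise, read 12.12 and 12.20 in MV4-11 and 12.47 and 12.58 in MV4-11R (SE 0.11, adjusted p = 0.0823). Its arrays did not overlap, and it passed with the intensity-dependent prior (adjusted p = 0.0310). In all, 0 of 17 measured glycolytic enzymes rose, 4 fell and 13 did not pass.

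**Figure D2:**
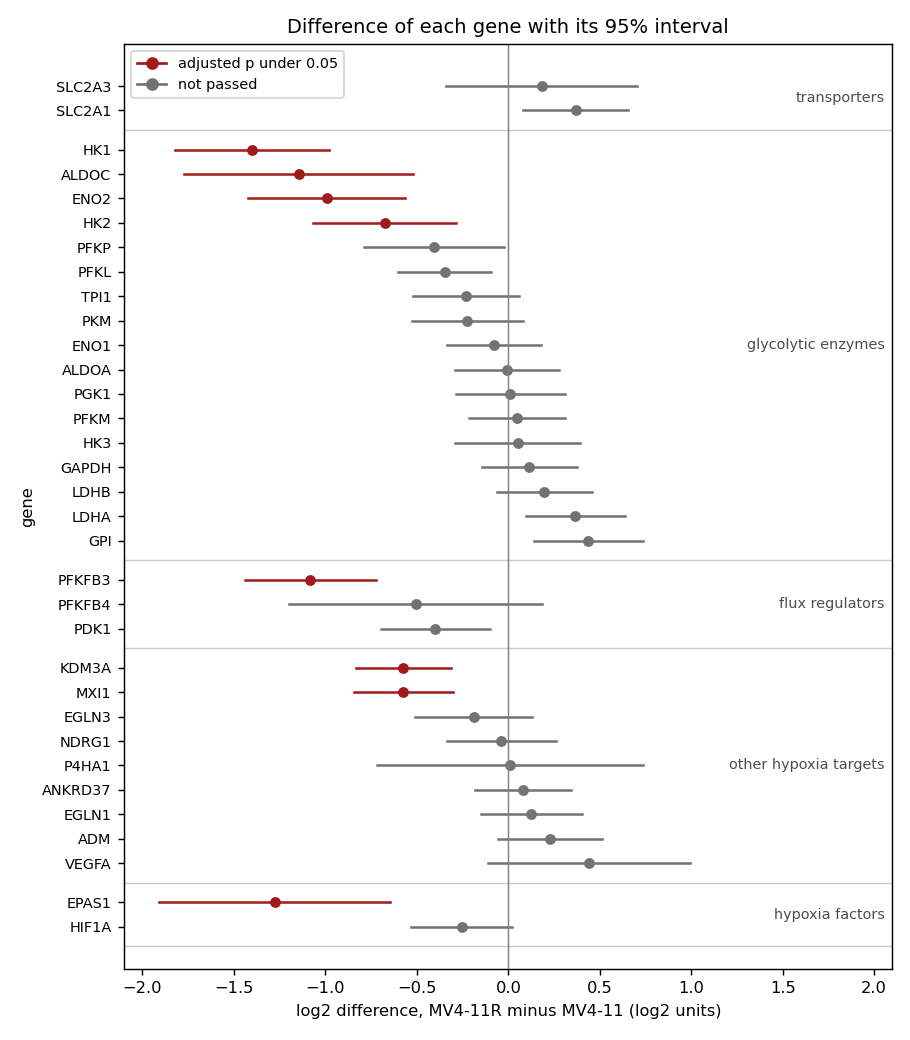
Log2 difference of each gene, MV4-11R minus MV4-11 (horizontal axis, log2 units), with limma's 95% interval from 2 arrays per line, ordered by size within each role. Genes with an adjusted p under 0.05 are red, and all 8 of these lie left of 0.

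Because isoforms of a step differed in their changes, the ratio of each pair of related enzymes within an array was compared between the lines. These 10 ratios were added to the same limma fit after the data were seen, with adjustment over all genes and ratios, and 3 passed. HK1 fell relative to HK3 by 1.45 log2 units, or 2.74-fold (adjusted p = 0.00323). HK3 lay not far above the background guide in both lines, so this size is not exact. ALDOA gained on ALDOC by 1.14 (SE 0.21, adjusted p = 0.0199) and ENO1 gained on ENO2 by 0.91 (SE 0.16, adjusted p = 0.0173). The change of a ratio is the change of its first gene minus that of its second on the same arrays. Each ratio that passed pairs a gene already called as a fall with a gene that did not pass, so it is no separate support for that fall. The ratio says only that the isoforms changed unequally.

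In the other pairs no unequal change passed the test. HK1 relative to HK2 differed by -0.73 (95% interval -1.39 to -0.06, adjusted p = 0.140), and HK2 relative to HK3 by -0.73 (adjusted p = 0.0630), which passed without resistant array 1 (0.0124), with the replicate number as a block (0.0401) and with the intensity-dependent prior (0.0486). PFKL relative to PFKM differed by -0.39 (adjusted p = 0.0572), which passed with dim genes left out (0.0459) and with that prior (0.0479). PFKM lay close to the background guide in both lines, so this ratio follows mostly PFKL. LDHA relative to LDHB differed by 0.17 (95% interval -0.09 to 0.43). The call on the aldolases was lost without parental array 2 (adjusted p = 0.0589), and that on the enolases without parental array 2 (0.0547) or resistant array 1 (0.0552). Both were also lost when every probe set was tested on its own (0.0670 and 0.0585). HK1 relative to HK2 passed without resistant array 2 (0.0134), and PFKFB3 relative to PFKFB4 without resistant array 1 (0.0455).

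**Figure D3:**
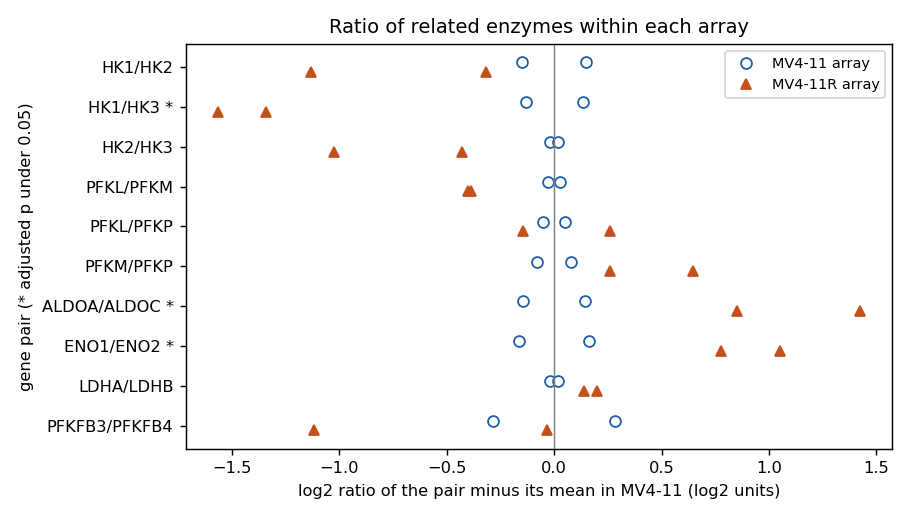
Log2 ratio of 10 pairs of related enzymes within each array, as the distance from the pair's mean in MV4-11 (horizontal axis, log2 units), with MV4-11 arrays as open circles and MV4-11R arrays as triangles. Asterisks mark the 3 ratios with an adjusted p under 0.05, HK1/HK3 to the left and ALDOA/ALDOC and ENO1/ENO2 to the right.

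Of the 3 regulators of flux, PFKFB3 fell. It makes fructose 2,6-bisphosphate, the strongest activator of phosphofructokinase. PFKFB3 read 9.54 and 9.52 in MV4-11 and 8.63 and 8.27 in MV4-11R (2.12-fold, log2 difference -1.08, SE 0.15, adjusted p = 0.00800), so the MV4-11 arrays were nearly equal and both MV4-11R arrays well below them.

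PFKFB4, a related enzyme whose gene is a known hypoxia target, read 7.87 and 8.42 in MV4-11 and 7.27 and 8.0 in MV4-11R (-0.51, SE 0.28, adjusted p = 0.317). Its arrays overlapped, and the distance within each line was wider than the difference between lines. It passed with the replicate number as a block (adjusted p = 0.0307). PDK1, which shuts pyruvate out of the mitochondrial citrate cycle by inhibiting pyruvate dehydrogenase, read 10.97 and 10.93 in MV4-11 and 10.66 and 10.44 in MV4-11R (-0.40, SE 0.12, adjusted p = 0.0821). The difference was -0.55 (adjusted p = 0.0337) with the regional shift removed.

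Of the other hypoxia targets, the 9 measured genes showed 0 rises, 2 falls and 7 without a pass. KDM3A, which removes methyl groups from lysine 9 of histone H3, read 9.56 and 9.63 in MV4-11 and 8.99 and 9.04 in MV4-11R, a fall of 1.49-fold (-0.57, SE 0.11, adjusted p = 0.0201). MXI1 read 9.08 and 9.12 in MV4-11 and 8.59 and 8.47 in MV4-11R, a fall of 1.49-fold (-0.57, SE 0.11, adjusted p = 0.0220). For both genes the distance between lines was several times that between arrays of a line. Each call was nevertheless lost without parental array 1 or 2, with adjusted p of 0.0662 and 0.0890 for KDM3A and 0.0758 and 0.0898 for MXI1. It was also lost for KDM3A without resistant array 1 (0.0715) and for MXI1 without resistant array 2 (0.0686).

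VEGFA, the angiogenic growth factor, had the largest difference among the targets that did not pass. It read 10.24 and 10.06 in MV4-11 and 10.93 and 10.25 in MV4-11R (0.44, SE 0.23, adjusted p = 0.274). The lower MV4-11R array lay just above the MV4-11 arrays and the other well above them. Without resistant array 2 the difference was 0.78 (adjusted p = 0.0269), and without resistant array 1 it was 0.11. With the regional shift removed it was 0.74 (adjusted p = 0.0845).

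The other targets did not pass. They were the vasodilator peptide ADM (0.23), the oxygen sensor EGLN1 (0.12), ANKRD37 (0.08), the collagen prolyl hydroxylase subunit P4HA1 (0.0084), the stress-response gene NDRG1 (-0.04) and the oxygen sensor EGLN3 (-0.19). With the regional shift removed NDRG1 differed by -0.28, EGLN3 by -0.31, P4HA1 by -0.10 and ANKRD37 by -0.11. EGLN3 was the 1 member under the background guide in both lines. P4HA1 read 9.38 and 9.98 in MV4-11 and 9.31 and 10.07 in MV4-11R, so its arrays differed within each line and hardly between lines.

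Set side by side, 4 of 17 glycolytic enzymes (23.5%) and 2 of 9 other hypoxia targets (22.2%) fell, and 0 of either rose. Over all genes 7.13% fell and 7.92% rose, so few calls in either direction would be awaited in lists this short. With dim genes left out 21.5% of 13812 genes passed (1586 rises and 1378 falls), near the shares called in both lists. The median differences of the enzymes and of the targets were -0.08 and 0.0084, beside 0.0073 over all genes. The enzymes ranged from -1.40 to 0.44 and the targets from -0.57 to 0.44. Without parental array 2 the counts were 2 and 0, and without resistant array 1 they were 2 and 1. Without parental array 1 or resistant array 2, 0 and 1 of the targets fell. Fewer of all genes fell in each of these fits as well. The counts come from a list chosen with earlier results known, and the difference between the groups was not tested.

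The genes of the hypoxia-inducible factors themselves were both lower on average. EPAS1 read 7.60 and 8.20 in MV4-11 and 6.34 and 6.90 in MV4-11R, a fall of 2.42-fold (-1.28, SE 0.26, adjusted p = 0.0259). One MV4-11R array lay close to the background guide of 6.26, so the fold may be understated. The call was lost without parental array 2 (adjusted p = 0.0602) or resistant array 1 (0.0692). HIF1A read 10.84 and 10.92 in MV4-11 and 10.56 and 10.69 in MV4-11R (-0.26, SE 0.11, adjusted p = 0.206), with arrays that did not overlap. The factors are controlled mainly through protein stability, which was not measured.

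Members also differed between arrays of the same line, and often alike in both lines. For 18 of 33 members (54.5%) the array numbered 2 read above the array numbered 1 in MV4-11 and in MV4-11R, against 28.5% of all genes. The reverse held for 5 members (15.2%), against 29.7% of all genes. Among the glycolytic enzymes 11 of 17 were higher on both arrays numbered 2, with medians of 0.08 in MV4-11 and 0.13 in MV4-11R. P4HA1 was higher there by 0.60 and 0.77, EPAS1 by 0.60 and 0.57, PFKFB4 by 0.55 and 0.73, ALDOC by 0.38 and 0.72, ENO2 by 0.38 and 0.31, and SLC2A3 by 0.59 and 0.27. VEGFA went the other way, at -0.18 and -0.68. The labels do not say that a number marks a shared day or batch, and what sets these arrays apart was not tested.

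**Figure D4:**
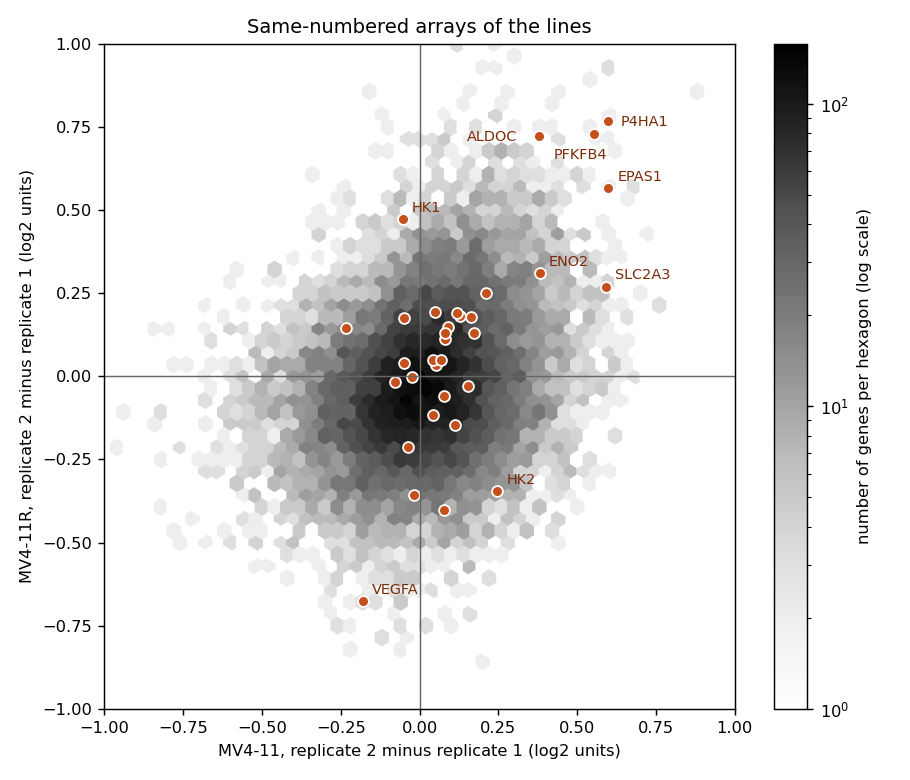
Replicate 2 minus replicate 1 in MV4-11 (horizontal axis) and in MV4-11R (vertical axis), in log2 units, with the 33 members as orange points over all genes as grey hexagons on a log count scale. P4HA1, EPAS1, PFKFB4 and ALDOC lie at the upper right, and 122 genes beyond 1 log2 unit fall outside the frame.

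Genes of the same pathways outside the 36 were read from 6 further lists. Of 87 measured, 8 rose, 7 fell and 72 did not pass (17.2% passing, beside 15.1% of all genes), with a median difference of -0.02. The number of falls was 4 without parental array 1 and 3 without parental array 2. With the replicate number as a block it was 15, in a fit where 19.8% of all genes passed. Fewer of all genes fell with either of those arrays left out, too.

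Among 19 other glycolysis genes 1 rose, 3 fell and 15 did not pass. SLC2A5 (GLUT5), a fructose transporter, rose from 8.44 and 8.85 to 11.06 and 11.45 (2.61, SE 0.19, adjusted p = 0.00163). PGM1, which links glucose 1-phosphate from glycogen to the pathway, fell from 7.68 and 8.18 to 6.24 and 5.77 (-1.93, SE 0.22, adjusted p = 0.00492). Both of its MV4-11R arrays lay under the background guide, so this size is not exact. FBP1, which reverses the phosphofructokinase step, fell by 1.08 log2 units (adjusted p = 0.0153). PFKFB2, a relative of PFKFB3, differed by -0.64 (adjusted p = 0.0224), a call lost without parental array 2 (0.0954) or resistant array 2 (0.0673).

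None of the 6 measured pentose phosphate enzymes passed, and their differences ran from -0.28 to 0.06 (1 lower at an unadjusted p under 0.05). Of 12 genes for the entry of pyruvate into mitochondria 2 rose, 1 fell and 9 did not pass. The pyruvate carrier MPC1 rose by 0.52 (adjusted p = 0.0289) and the dehydrogenase subunit DLD by 0.48 (adjusted p = 0.0380), while the kinase PDK2, a relative of PDK1, fell by 0.60 (adjusted p = 0.0256). With arrays left out in turn the adjusted p of MPC1 ran from 0.0764 to 0.129 and that of DLD from 0.0634 to 0.152. The DLD call was also lost with the regional shift removed (0.0644). That of PDK2 was 0.0839 without parental array 1, 0.0893 without parental array 2 and 0.0754 without resistant array 2.

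None of the 12 HIF partners and oxygen sensors passed, with differences from -0.51 to 0.40 (1 higher and 2 lower at an unadjusted p under 0.05). Of 5 glucose-sensing genes MLXIPL, which encodes the carbohydrate response factor ChREBP, rose by 0.94 (adjusted p = 0.0117).

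Of 33 further hypoxia targets 4 rose, 3 fell and 26 did not pass. The mitophagy receptor BNIP3 read 5.81 and 5.54 in MV4-11 and 8.83 and 9.65 in MV4-11R (3.56, SE 0.27, adjusted p = 0.00167). STC2, a secreted glycoprotein, rose by 2.11 (adjusted p = 0.00864) and DDIT4, an inhibitor of mTORC1, by 0.98 (adjusted p = 0.00439). The MV4-11 arrays of BNIP3 and STC2 lay under the background guide, so these sizes are not exact. The remaining rise, VLDLR, a lipoprotein receptor, was 0.95 (adjusted p = 0.00754, up to 0.0324 under the alternatives) and is named after its value was seen. The chemokine receptor CXCR4 (-0.67, adjusted p = 0.0184), TMEM45A (-0.54, adjusted p = 0.0434) and ZNF395 (-0.54, adjusted p = 0.0446) fell, TMEM45A under the guide in both lines. Leaving out arrays in turn, the CXCR4 call was lost without parental array 1 (0.0824) or resistant array 2 (0.0511), and the calls on TMEM45A and ZNF395 were lost without any 1 array, with adjusted p up to 0.177. That on TMEM45A was also lost with the regional shift removed (-0.29, adjusted p = 0.194) and with a second quantile normalization (0.0670). When every probe set was tested on its own, the calls on CXCR4 (0.0573), TMEM45A (0.105) and ZNF395 (0.107) were all lost.

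**Figure D5:**
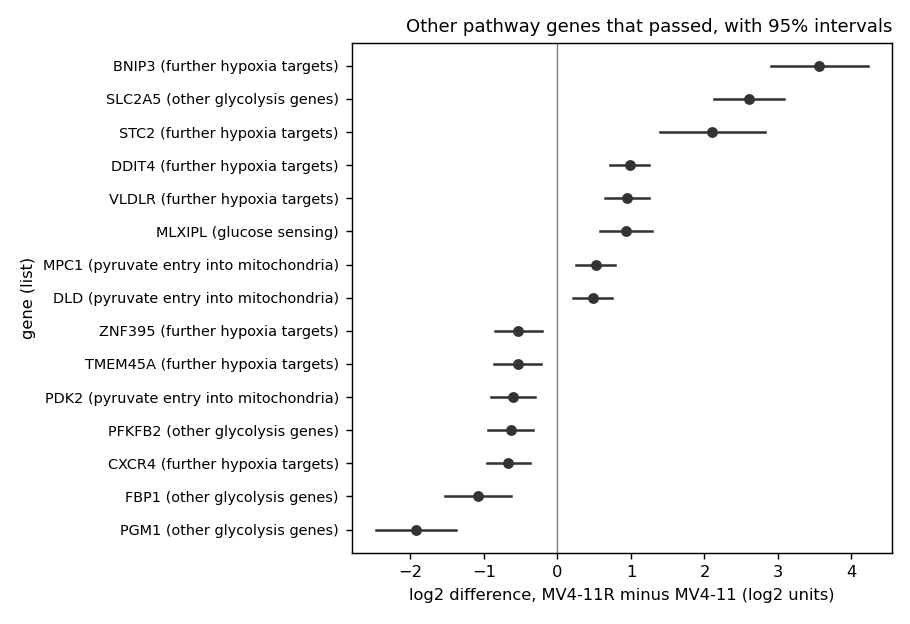
Log2 difference, MV4-11R minus MV4-11 (horizontal axis, log2 units), of the 15 genes outside the 36 that passed at an adjusted p under 0.05, with limma's 95% intervals and the list of each gene in parentheses. BNIP3, SLC2A5 and STC2 lie farthest to the right and PGM1 farthest to the left.

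The positions of the members in the genome were compared with the shifts of their neighbours. The median difference of the neighbours ran from -0.14 (PFKFB3) to 0.13 (HK1) for the 8 members that fell, and all 8 passed with the shift removed. HK1, PFKFB3 and MXI1 lie on chromosome 10, HK2, KDM3A and EPAS1 on chromosome 2, ENO2 on chromosome 12 and ALDOC on chromosome 17. The neighbours of VEGFA on chromosome 6 had a median difference of -0.30. With the shift removed SLC2A1 differed by 0.23 and PFKP by -0.21.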

How the data were processed

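Total RNA from 4 samples was hybridised to 1-colour Affymetrix arrays. The deposited values are log2 signal per probe set, made by the authors with RMA (Affymetrix Expression Console software), per the submitters' processing notes, whose versions are not given in the sources used here. The log2 scale was read from the values. RMA compresses differences of dim genes. The number of arrays limits the precision.

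Of 33297 probe sets, 19460 had 1 gene. For each gene the brightest probe set was kept, with no filter. Each of 18417 genes was tested with limma 3.58.1 in R 4.3.3 (lmFit, eBayes, 2-sided, no block, 2 residual degrees of freedom, 6.06 with the prior) and Benjamini-Hochberg adjustment over all genes. The fit was tested on simulated data.

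Genes given with the value of each array were the members that passed, SLC2A1, HK2, LDHA, PDK1, VEGFA, CA9 (not measured), HIF1A and EPAS1, and per role the member of largest difference that did not pass. From each further list up to 3 passing rises and falls were named. P4HA1 was added after its values were seen. The members and lists were chosen with earlier results of these data known. Deviations of same-numbered arrays from their line means correlated at r = 0.26 across genes, which are not independent.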

Additional observations from a re-analysis of the deposited data

How the results depend on the processing

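Under the 12 alternatives no call on a member, a ratio of isoforms or one of the 15 further pathway genes that passed changed direction (TMEM45A had 11, being too dim for the filter), and the 7 members whose sign changed under at least 1 of them (ALDOA, ANKRD37, HK3, NDRG1, P4HA1, PGK1 and SLC2A3) had not passed. Mean probe sets, median centring, a second quantile normalization and a filter at the 25th percentile of level left the same 8 members falling. When each of 31543 probe sets was tested on its own, 2 members fell (HK1 and PFKFB3), with 1 glycolytic enzyme, 0 other hypoxia targets and 1 further pathway gene falling, and 1465 probe sets passed (734 rises, 731 falls). More tests and dim probe sets enter that adjustment, among them the 12083 probe sets that the gene annotation does not list. Under it the ratios ALDOA to ALDOC (adjusted p = 0.0670) and ENO1 to ENO2 (0.0585) no longer passed. With an intensity-dependent robust prior 2 members rose (GPI and LDHA), and 15.6% of all genes passed. With the replicate block 1 rose (GPI), 9 fell and 15 further pathway genes fell, and the ratio HK2 to HK3 passed (adjusted p = 0.0401). Calls also grew over the whole table under that block, where 19.8% of all genes passed, beside 15.1% in the main fit. With the regional shift removed the median of the other hypoxia targets was -0.11. With 1 array left out in turn, 0 to 1 members rose, 3 to 6 fell, 2 to 3 glycolytic enzymes and 0 to 1 other targets fell, 6 to 7 further genes rose and 3 to 6 fell. The medians then ran from -0.11 to -0.05 for the enzymes and from -0.13 to 0.12 for the targets, and 1588 to 2479 genes passed (713 to 1239 rises, 792 to 1240 falls). In these fits the lone array of a line is assumed to vary like the other line. The cause of these changes was not tested. Genes near background, such as EGLN3, PFKM and TMEM45A, can show only compressed differences.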
